A study of Mus musculus with 8 samples.

Results

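Small leucine-rich proteoglycans are secreted matrix proteins whose core is built of leucine-rich repeats, and many carry chondroitin, dermatan or keratan sulfate chains. They bind collagen fibrils and set fibril width and spacing, and several also bind growth factors of the TGF-beta family. In the skull and skin they are known as part of the matrix laid down by fibroblast and bone-forming mesenchyme. The 10 genes described here are Dcn, Bgn, Aspn, Fmod, Lum, Prelp, Kera, Omd, Epyc and Ogn, taken from the table by symbol as members of this protein family. All 10 were found among the 23420 genes of the deposited table, and all 10 passed the filter on low values.

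RNA was measured in 2 regions of the head mesenchyme at E12.5, in mouse embryos that were wild type and of the C57BL/6 strain. Supraorbital cranial mesenchyme (SOM) lies above the eye and is known to hold the primordia of skull roof bones, and the other region was early migrating cranial mesenchyme (EMM). Each region had 4 libraries, and each library came from the pooled tissue of 4 to 5 embryos, so that single embryos were not measured. No transgene, deletion or drug was involved, and both regions were freed of surface ectoderm and brain after dispase treatment. Gene-assigned reads ran from 16765416 to 33694331 in SOM libraries and from 12703844 to 22440232 in EMM libraries, and 3 reads in a library, the limit that a count of 0 allows, came to between 1.91 and 5.42 normalized counts. A normalized count is the number of reads of a gene after scaling for the depth of its library. Differences are given as log2(normalized count + 1) of SOM minus EMM from limma, with Benjamini-Hochberg adjusted p-values over all 14249 genes tested.

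The label of mesenchyme was met in both regions, since Pdgfra, a receptor gene of fibroblastic mesenchyme, and Prrx1, a homeobox gene of limb and head mesenchyme, stood at 7913 normalized counts or more in every library. In bulk tissue, fewer cells of a type and less RNA per cell cannot be told apart.

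Of the 10 proteoglycan genes, 6 were lower in SOM, 1 was higher in SOM and 3 did not pass the test. The 6 lower genes were Bgn, Lum, Dcn, Fmod, Prelp and Kera, each by more than 2-fold, and the higher gene was Aspn. Among all genes tested, 72.1% were called, 36.1% lower in SOM and 36.0% higher, with 11.0% lower by at least 2-fold and 5.19% higher by at least 2-fold. The median difference of the 10 genes was -1.23, against 0.01 over all genes tested. The libraries of the regions did not overlap in 7 of the 10 genes, and they did not overlap in 66.1% of the genes tested (33.2% lower and 32.9% higher in SOM). In the authors' deposited table, 6 of the 10 genes were higher in EMM, 1 was higher in SOM and 3 had an adjusted p of 0.05 or more.

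**Figure D1:**
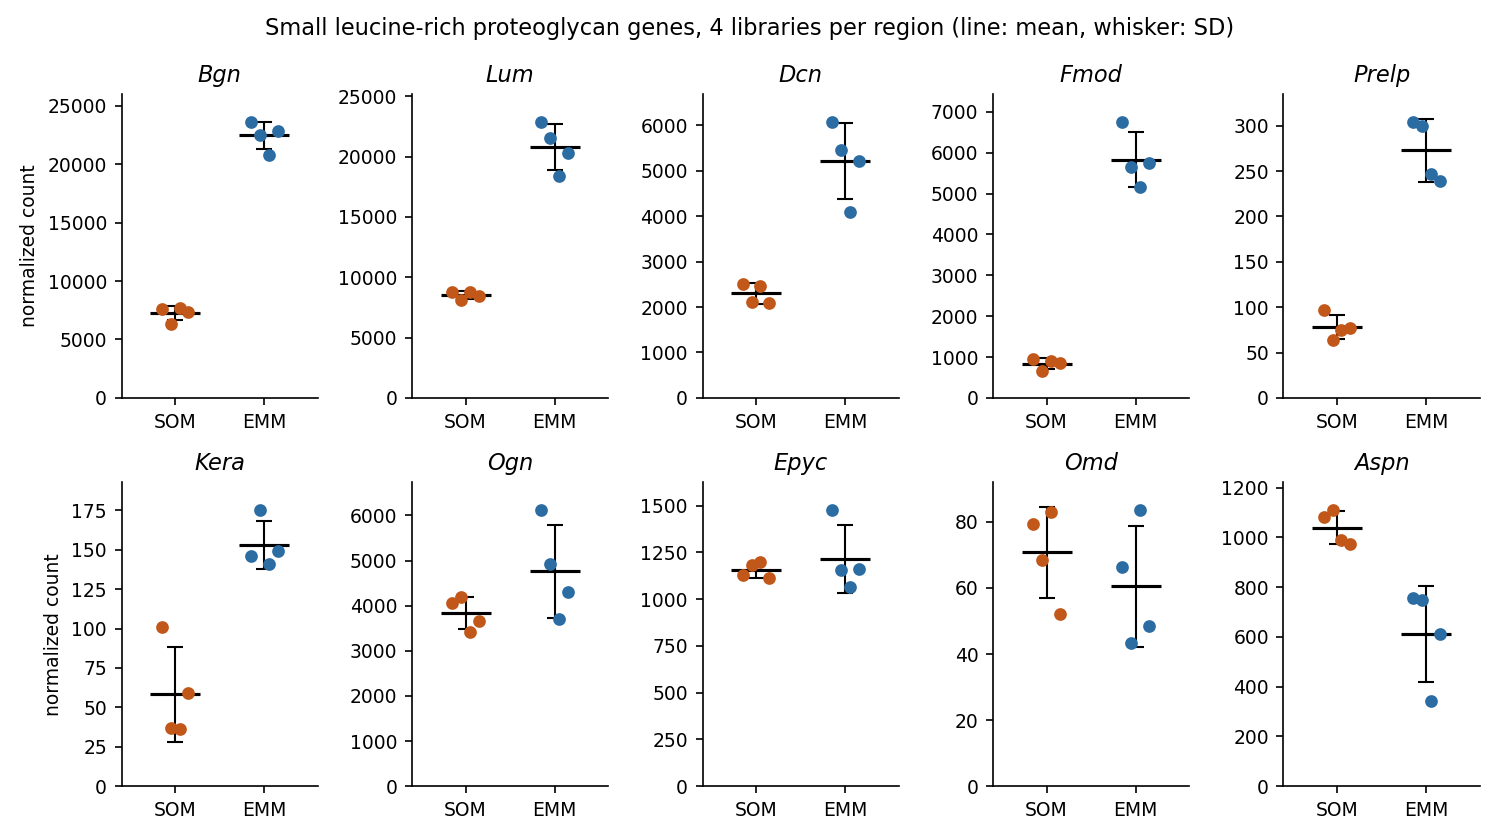
Normalized count (vertical axis, linear, from 0) of each of the 10 genes in the 4 SOM and 4 EMM libraries; points are libraries, the horizontal line is the mean and the whisker is 1 SD. Bgn, Lum, Dcn, Fmod, Prelp and Kera have every SOM library below every EMM library, Aspn has every SOM library above, and Ogn, Epyc and Omd overlap.

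Biglycan and decorin are the closest relatives in the family and carry chondroitin or dermatan sulfate chains, and biglycan is known for its part in bone mass. Bgn had 7632, 6332, 7664 and 7377 normalized counts in SOM replicates 1 to 4, against 23635, 22481, 20818 and 22873 in EMM replicates 1 to 4. The highest SOM library was thus far below the lowest EMM library. Bgn was 3.10-fold higher in EMM, with a log2 difference of -1.63 (SE 0.06, limma adjusted p = 2.28e-12). Dcn stood at 2517, 2117, 2468 and 2090 normalized counts in the SOM libraries and at 6080, 5464, 4097 and 5204 in the EMM libraries. EMM replicate 3 was the lowest EMM library for both genes. The log2 difference of Dcn was -1.17 (SE 0.12, limma adjusted p = 2.54e-05), with means of 2298 ± 226 in SOM and 5211 ± 829 in EMM (SD, n = 4 each). Between them, the level of Bgn per kb was 3.03 ± 0.24 times that of Dcn in SOM and 4.18 ± 0.50 times in EMM (SD, n = 4 each), and these ratios did not overlap between the regions.

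Asporin belongs to the same class, has a run of aspartate residues at its start and is known to bind collagen and TGF-beta. Aspn had 1082, 1110, 991 and 975 normalized counts in SOM, against 755, 746, 341 and 610 in EMM. The SOM libraries lay close together, and EMM replicate 3 stood well below the other EMM libraries. The mean was 1039 ± 66.7 in SOM and 613 ± 193 in EMM (SD, n = 4 each), a log2 difference of 0.83 (SE 0.26, 95% interval 0.19 to 1.46, limma adjusted p = 0.0272). Without EMM replicate 3 the difference was 0.57 (limma adjusted p = 8.44e-06), so that the size fell and the precision rose. Without EMM replicate 4 or any single SOM library the call was lost, with limma adjusted p between 0.0512 and 0.0669 and a difference between 0.79 and 0.86. In each of these 5 cases the unadjusted limma p of Aspn was below 0.05. In EMM replicate 3, hemoglobin genes took 1.76% of reads, the largest share of any library, and its part in the low Aspn value was not tested. Aspn shares exonic bases with Cenpp, a centromere gene on the opposite strand, at 253 ± 51.3 in SOM and 179 ± 6.93 in EMM normalized counts (SD, n = 4 each), and reads of such a pair cannot be told apart without strand.

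Fibromodulin and lumican are keratan sulfate proteoglycans that act in turn on growing collagen fibrils, fibromodulin above all in tendon and lumican in cornea and skin. Fmod had the largest difference of the 10 genes. It stood at 952, 652, 906 and 853 normalized counts in SOM and at 6761, 5657, 5160 and 5756 in EMM. Every EMM library held more than 5 times the count of any SOM library, and the means of 841 ± 132 in SOM and 5833 ± 671 in EMM (SD, n = 4 each) gave a log2 difference of -2.80 (SE 0.13, limma adjusted p = 9.20e-08). Lum had 8814, 8112, 8768 and 8479 normalized counts in SOM, against 22898, 21512, 18404 and 20335 in EMM. Its libraries were tight within SOM, with an SD of 3.79% of the mean, and its log2 difference was -1.28 (SE 0.06, limma adjusted p = 2.00e-11). The level of Lum per kb was 14.0 ± 1.94 times that of Fmod in SOM and 4.82 ± 0.23 times in EMM (SD, n = 4 each), without overlap. Against Dcn, its neighbour on the chromosome, the ratio of Lum was 8.91 ± 0.62 in SOM and 9.60 ± 0.76 in EMM (SD, n = 4 each), and the ranges overlapped.

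Keratocan and Prelp are less abundant relatives, keratocan known from the corneal stroma and Prelp from matrix close to basement membranes. Prelp had 97.0, 64.4, 74.7 and 76.8 normalized counts in SOM, against 305, 300.03, 247 and 240 in EMM, with a log2 difference of -1.80 (SE 0.13, limma adjusted p = 6.00e-09). Kera had 101, 37.1, 36.4 and 59.4 normalized counts in SOM and 146, 175, 141 and 149 in EMM. SOM replicate 1 stood above the other SOM libraries but below every EMM library. The log2 difference of Kera was -1.496 (SE 0.29, limma adjusted p = 0.000918), and it rested on 279 reads in SOM and 486 in EMM. Genes of cornea and lens were near 0 in both regions: the list of 5 summed to between 2.67 and 6.38 normalized counts in SOM libraries and between 8.08 and 23.5 in EMM libraries, Cryba1 was at 0 in all 8, and none of the 5 passed the filter. That list was Krt12, Aldh3a1, Cryaa, Cryba1 and Pax6, with no gene particular to the corneal stroma. The part of such stroma in the Kera level was not tested. Prelp shares exonic bases with Gm15851 on the opposite strand.

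The remaining members did not pass the test in either direction. Osteoglycin, named for bone and present in many connective tissues, was abundant, with Ogn at 4066, 4203, 3420 and 3668 normalized counts in SOM and 6124, 4923, 3704 and 4302 in EMM. The groups overlapped, and the difference was -0.29 (SE 0.16, 95% interval -0.66 to 0.08, limma adjusted p = 0.134). Without EMM replicate 3, the lowest EMM library, the difference was -0.40 (limma adjusted p = 0.0187). Epyc encodes epiphycan of growth cartilage and stood at 1128, 1185, 1201 and 1115 normalized counts in SOM, against 1478, 1157, 1064 and 1162 in EMM. Its difference was -0.06 with a 95% interval from -0.24 to 0.12 (limma adjusted p = 0.530), which leaves out changes as large as those of the 6 lower genes. It shares exonic bases with Gm10754 on the opposite strand, which averaged 4.12 normalized counts in SOM and 6.26 in EMM. Omd encodes osteomodulin, a keratan sulfate proteoglycan of mineralized bone matrix. It had 79.3, 68.6, 83.0 and 52.1 normalized counts in SOM and 66.4, 43.4, 83.6 and 48.5 in EMM, on 369 and 205 reads, with an interval from -0.20 to 0.69 (limma adjusted p = 0.297).

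The genes lie in 3 clusters of neighbours, with Bgn alone on chromosome X from 73483602 to 73495933 (GRCm38, the assembly that mm10 names, GENCODE M21 annotation). On chromosome 1, Prelp (133910304 to 133921414, minus strand) and Fmod (134037254 to 134048277, plus strand) lie with Optc in a stretch of 151.1 kb. On chromosome 10, Dcn (97479609 to 97518143), Lum (97565128 to 97572703), Kera (97606879 to 97613692) and Epyc (97644068 to 97682454) follow each other on the plus strand over 202.8 kb. On chromosome 13, Ecm2 is followed by Aspn (49544443 to 49567565), Omd (49582462 to 49592822) and Ogn (49608046 to 49624501) on the plus strand, over 119.7 kb. No other protein-coding gene lies wholly between neighbours in any cluster. Genes that overlap a member, such as Cenpp on the strand opposite to Aspn, are not counted by this rule.

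All 3 genes of the chromosome 1 cluster were lower in SOM, by 1.80 to 2.80 on the log2 scale. Of all genes tested, 36.1% were lower in SOM and 36.0% higher. In the chromosome 10 cluster, Dcn, Lum and Kera were lower in SOM with differences from -1.496 to -1.17, while Epyc at the end of the row had a difference of -0.06. The chromosome 13 cluster was mixed, with Ecm2 at -1.26 (limma adjusted p = 5.50e-05), Aspn at 0.83, Omd at 0.25 and Ogn at -0.29. Within a library, where the size factor cancels, the level of Epyc per kb was 1.16 ± 0.11 times that of Dcn in SOM and 0.534 ± 0.05 times in EMM (SD, n = 4 each). Whether such a ratio lies above 1 depends on the length used: per kb of coding sequence, Epyc was below Dcn in both regions, at 1198 against 2164 normalized counts in SOM and at 1258 against 4907 in EMM. The level of Ogn was 3.38 ± 0.15 times that of Aspn in SOM and 7.48 ± 1.76 times in EMM. That of Fmod was 11.8 ± 1.14 times that of Prelp in SOM and 23.5 ± 2.38 times in EMM. None of these 3 ratios overlapped between the regions, nor did that of Epyc to Kera. Other ratios within the clusters overlapped. Ogn to Omd ran from 36.1 to 61.7 in SOM and from 38.8 to 99.5 in EMM. Aspn to Omd ran from 11.4 to 17.9 in SOM and from 3.89 to 16.4 in EMM. Lum to Kera ran from 81.5 to 224 in SOM and from 114 to 146 in EMM. The ranges of Optc to Prelp and of Lum to Dcn overlapped as well. No test was run on any of these ratios.

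**Figure D2:**
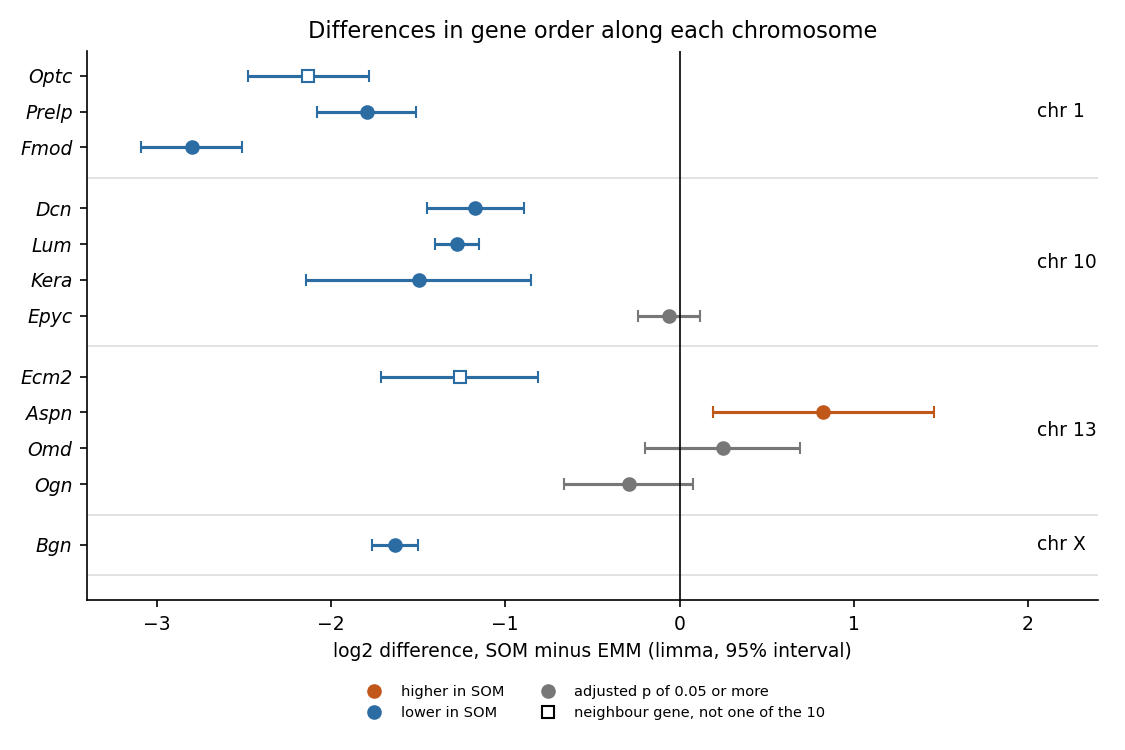
Log2 difference of SOM minus EMM (horizontal axis) with its 95% interval from limma, genes in their order along each chromosome; filled circles are the 10 proteoglycan genes and open squares are the neighbours Optc and Ecm2, with orange higher in SOM, blue lower and grey not past the test. All intervals on chromosome 1 lie below 0, while Epyc, Omd and Ogn cross 0 and Aspn lies above it from 0.19 to 1.46.

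The promoters of Fmod, Prelp and Bgn, the genes with the largest falls, and of Aspn are shown to set genes that were lower in SOM, neighbours among them, beside the gene that was higher. Each runs from 250 bases before to 50 bases after the RefSeq start on GRCm38.p6, 5′ to 3′ on the strand of the gene, and capitals mark E-box letters (CANNTG), which bHLH factors such as Twist1 are known to read.
Fmod, chr1:134037004-134037303, plus strand: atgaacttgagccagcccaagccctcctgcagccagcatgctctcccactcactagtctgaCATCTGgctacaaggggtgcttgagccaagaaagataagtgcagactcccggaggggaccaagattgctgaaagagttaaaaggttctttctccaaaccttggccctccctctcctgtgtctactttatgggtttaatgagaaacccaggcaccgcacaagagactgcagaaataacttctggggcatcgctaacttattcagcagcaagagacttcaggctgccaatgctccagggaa
Prelp, chr1:133921352-133921651, minus strand: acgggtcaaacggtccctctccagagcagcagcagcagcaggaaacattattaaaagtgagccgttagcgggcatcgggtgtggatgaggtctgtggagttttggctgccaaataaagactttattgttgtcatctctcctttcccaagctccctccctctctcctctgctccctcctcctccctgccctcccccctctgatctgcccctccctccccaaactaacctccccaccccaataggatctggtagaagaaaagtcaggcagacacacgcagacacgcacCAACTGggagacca
Bgn, chrX:73483351-73483650, plus strand: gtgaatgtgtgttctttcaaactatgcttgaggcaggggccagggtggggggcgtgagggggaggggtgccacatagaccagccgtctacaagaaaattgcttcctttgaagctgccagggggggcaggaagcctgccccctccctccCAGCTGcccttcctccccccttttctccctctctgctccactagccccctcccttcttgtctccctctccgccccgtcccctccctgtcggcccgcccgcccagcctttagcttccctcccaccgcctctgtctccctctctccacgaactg
Aspn, chr13:49544193-49544492, plus strand: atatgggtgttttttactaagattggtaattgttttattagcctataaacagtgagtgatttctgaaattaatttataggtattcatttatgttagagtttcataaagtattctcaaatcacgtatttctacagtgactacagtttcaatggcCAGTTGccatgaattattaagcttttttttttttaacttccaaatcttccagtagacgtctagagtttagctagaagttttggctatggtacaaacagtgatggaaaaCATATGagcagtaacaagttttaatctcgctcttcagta

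The windows differ in base composition, with G and C making up 63.7% of the Bgn window, 55.3% of that of Prelp, 51.0% of that of Fmod and 31.0% of that of Aspn. Fmod, Prelp and Bgn each hold 1 E-box match and Aspn holds 2, and 72.3% of the 32851 promoter windows in the RefSeq table hold at least 1. Bgn has 3 matches to the GC box letters GGGCGG, found in 35.7% of windows, and Aspn has 2 to the TATA letters TATAAA, found in 13.6%. Of 8 members with a window, 2 (Epyc and Ogn) hold the Runx letters TGTGGT, against 16.8% of windows, and none holds TAATTA, a homeodomain core, against 5.29%, or the AP-1 letters TGANTCA, against 7.81%. Both strands were searched, and in Ogn the Runx match overlaps an E-box match. A match is a run of letters and not a measured binding site. Dcn and Lum are not among the windows shown.

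Levels of different genes can be compared per kb of exon. In SOM, Lum led at 3490 ± 132 normalized counts per kb, followed by Ogn at 1496 ± 140 and Bgn at 1189 ± 103 (SD, n = 4). Epyc (452 ± 16.4), Aspn (442 ± 28.4) and Dcn (394 ± 38.7) came next, and within 1 SD Epyc and Aspn, and Aspn and Dcn, were not apart. Fmod stood at 254 ± 39.9, and Omd (31.5 ± 6.16), Kera (25.6 ± 13.2) and Prelp (21.6 ± 3.77) closed the order with overlapping spreads. In EMM, Lum stood at 8492 ± 777 normalized counts per kb and Bgn at 3681 ± 195, followed by Ogn (1856 ± 403) and Fmod (1765 ± 203), which overlapped. Dcn (893 ± 142), Epyc (474 ± 70.6) and Aspn (260 ± 82.1) followed, then Prelp (75.4 ± 9.49) and Kera (67.1 ± 6.69), which overlapped, and Omd (26.9 ± 8.15). Fmod was thus the seventh of the 10 in SOM and the fourth in EMM. The exon length depends on the annotated transcripts, and the order in SOM turned in places on coding length. Per kb of coding sequence in SOM, Bgn (6550) stood above Ogn (4294), Dcn (2164) above Epyc (1198) and Aspn (929), and Prelp (69.0) above Omd (55.7) and Kera (55.5). In EMM the order of the 10 genes was the same on both lengths, although Bgn (20282) came close to Lum (20500) per coding kb.

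Summed over the 10 genes, the level was lower in SOM and differently made up. Aspn alone was higher in SOM, and Ogn, Epyc and Omd did not pass the test. The 10 genes took 0.113% to 0.125% of all reads in SOM libraries and 0.235% to 0.298% in EMM libraries. Their summed level ran from 7548 to 8162 normalized counts per kb in SOM and from 15365 to 19778 in EMM. Lum held 43.9% to 45.7% of that sum in SOM and 47.3% to 48.9% in EMM. The share of Bgn was 13.8% to 16.04% in SOM and 19.6% to 22.2% in EMM, and that of Fmod was 2.61% to 3.53% in SOM and 9.51% to 10.3% in EMM. Ogn took 17.0% to 21.7% in SOM and 9.39% to 12.1% in EMM, Epyc 5.40% to 6.13% in SOM and 2.51% to 2.92% in EMM, and Aspn 5.37% to 6.25% in SOM and 0.942% to 1.76% in EMM. The share of Dcn was 4.69% to 5.40% in SOM and 4.57% to 5.27% in EMM, and these ranges overlapped. All of these shares depend on the length used. Per kb of coding sequence, Lum stood closer to Bgn, at 8425 against 6550 normalized counts in SOM and 20500 against 20282 in EMM.

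**Figure D3:**
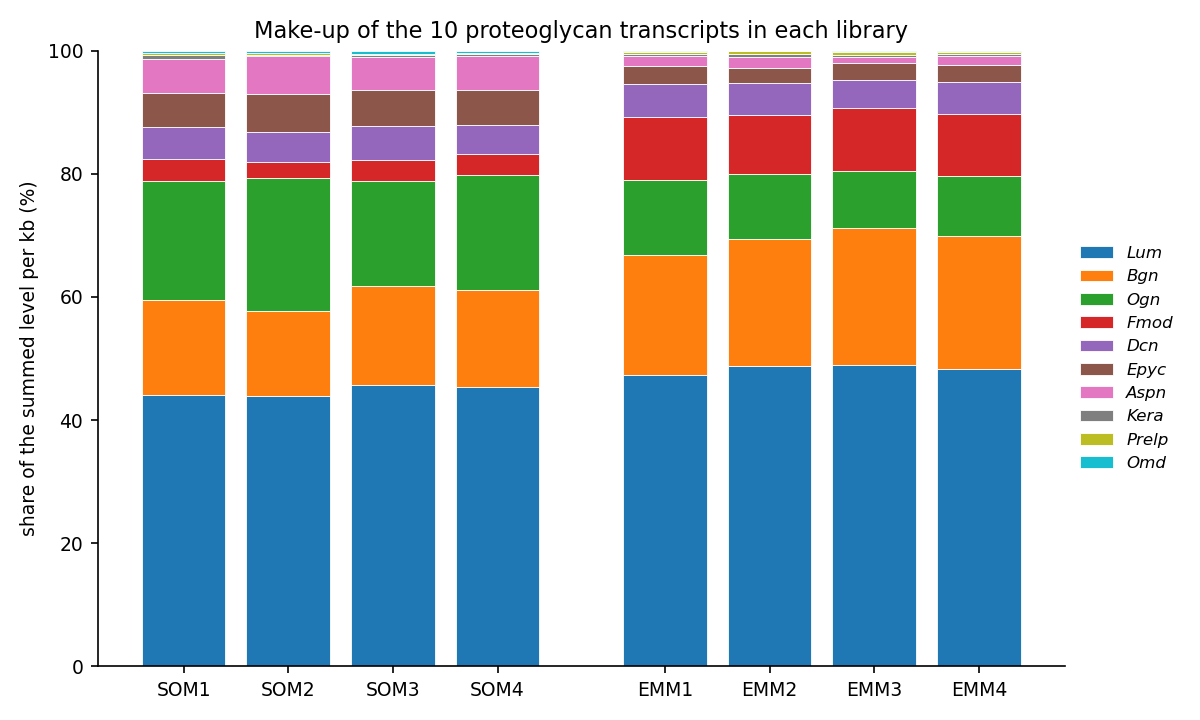
Share (%) of each gene in the summed level per kb of exon of the 10 proteoglycan genes, a stacked bar per library, SOM on the left and EMM on the right. Fmod and Bgn take more of the EMM bars, Ogn, Epyc and Aspn take more of the SOM bars, and the Dcn shares overlap. The shares depend on the length used.

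Of 8 further members of the wider leucine-rich family, 6 passed the filter, of which 3 were lower in SOM, 1 was higher and 2 did not pass the test, beside 72.1% of all genes called in either direction. Optc, which encodes opticin of the vitreous of the eye, had 34.0, 30.1, 31.3 and 22.7 normalized counts in SOM against 111, 134, 149 and 133 in EMM, a log2 difference of -2.13 (limma adjusted p = 8.48e-09). Tsku, which encodes a secreted BMP-binding protein, was lower in SOM by a small amount, at 984 ± 89.1 against 1176 ± 47.6 in EMM (SD, n = 4 each), with a difference of -0.26 (limma adjusted p = 0.00208). Chadl, a cartilage relative of chondroadherin, had 142, 48.3, 76.6 and 122 normalized counts in SOM and 16.4, 21.7, 27.2 and 25.6 in EMM, with a difference of 1.96 (limma adjusted p = 7.30e-05), and it shares exonic bases with L3mbtl2 on the opposite strand. SOM replicates 1 and 4 were the highest for Chadl, and also for Acan, the main proteoglycan gene of cartilage, at 749, 115, 313 and 601 in SOM and at most 75.9 in EMM. Of the 6 cartilage marker genes, 5 were tested and 4 were higher in SOM by limma. That count was 2 by limma-voom and 1 with EMM replicates 2 and 3 and SOM replicate 4 left out together. The sum of the 6 ran from 31206 to 52319 normalized counts in SOM and from 27676 to 29100 in EMM; the part of cartilage in the Chadl difference was not tested. Podn had a difference of 0.15 (limma adjusted p = 0.409) and Podnl1 of 0.50 (limma adjusted p = 0.171). Without SOM replicate 1, Podnl1 was higher in SOM by 0.75 (limma adjusted p = 0.0407). Chad, with 93 reads in SOM and 17 in EMM, and Nyx, with 45 and 28, did not pass the filter on low values. In the authors' deposited comparison of EMM over SOM, Chad was higher in SOM (log2 fold change -1.39, DESeq2 adjusted p = 0.00172). Nyx was not called there (DESeq2 adjusted p = 0.866).

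Enzymes that build the sugar chains were mostly lower in SOM, where 36.1% of all genes tested were lower and 36.0% higher. Of 22 tested genes for the linker and for chondroitin and dermatan sulfate chains, 17 were lower in SOM, 2 were higher and 3 were not called, and the median difference was -0.66. Fam20b, a kinase that acts on the linker, stood at 1315 ± 68.9 in SOM and 2492 ± 120 in EMM, and Chsy3, a chondroitin synthase, at 115 ± 11.7 in SOM and 367 ± 26.8 in EMM (SD, n = 4 each). The sulfotransferase gene Chst3 was higher in SOM by 0.56 (limma adjusted p = 8.27e-06). Chst11 was higher by 0.28 (limma adjusted p = 0.0264), a call lost without EMM replicate 2 (limma adjusted p = 0.0687), EMM replicate 3 (0.0541) or SOM replicate 4 (0.0977, with a difference of 0.16). Of 7 keratan sulfate enzymes, 5 were lower in SOM, 1 was higher and 1 was not called, and the median was -0.59. B4galt4, a galactosyltransferase gene, had a difference of -0.96 and the sulfotransferase gene Chst1 of -0.80, and Chst2 was higher by 0.49 (limma adjusted p at most 3.21e-06 for these 3).

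Binding partners of the proteoglycans are given next. Of 14 genes of fibril-forming and fibril-associated collagens and collagen VI, 12 were lower in SOM and 2 were higher, with a median of -1.33. Col5a2 and Col3a1, which encode chains of fibrillar collagens V and III, had differences of -1.34 and -1.18 (limma adjusted p at most 9.33e-12), and this collagen list took 1.82% to 2.17% of reads in SOM and 4.46% to 5.17% in EMM. The higher genes were Col2a1 (0.61, limma adjusted p = 0.0108) and Col11a2 (2.401, limma adjusted p = 0.000999), both known from cartilage. Of 14 growth factors and receptors known to interact with these proteoglycans, 12 were lower in SOM and 2 were higher, with a median of -0.90. Wisp1, a matricellular gene, was lower at 665 ± 52.7 in SOM against 3890 ± 322 in EMM, and Tgfb2 was lower at 839 ± 72.3 against 3373 ± 266 in EMM (SD, n = 4 each). The ligand genes Bmp2 and Tgfb3 were higher in SOM by 2.01 and 0.38 (limma adjusted p at most 0.00106). Of 8 tested genes for proteases and their enhancers that act on these proteins or on procollagen, 6 were lower in SOM and 2 were higher, with a median of -0.78. Bmp1, the protease that trims the biglycan and osteoglycin precursors, was higher in SOM by 0.33 (limma adjusted p = 3.04e-05), whereas its enhancer Pcolce had a difference of -1.06, Pcolce2 was higher by 2.84 and the gelatinase gene Mmp2 had a difference of -0.92 (limma adjusted p at most 1.45e-07 for these 3). The Pcolce2 difference rested on 402 reads in SOM and 35 in EMM. These lists are described by counts and medians, beside a median of 0.01 and 36.1% lower among all genes tested.

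**Figure D4:**
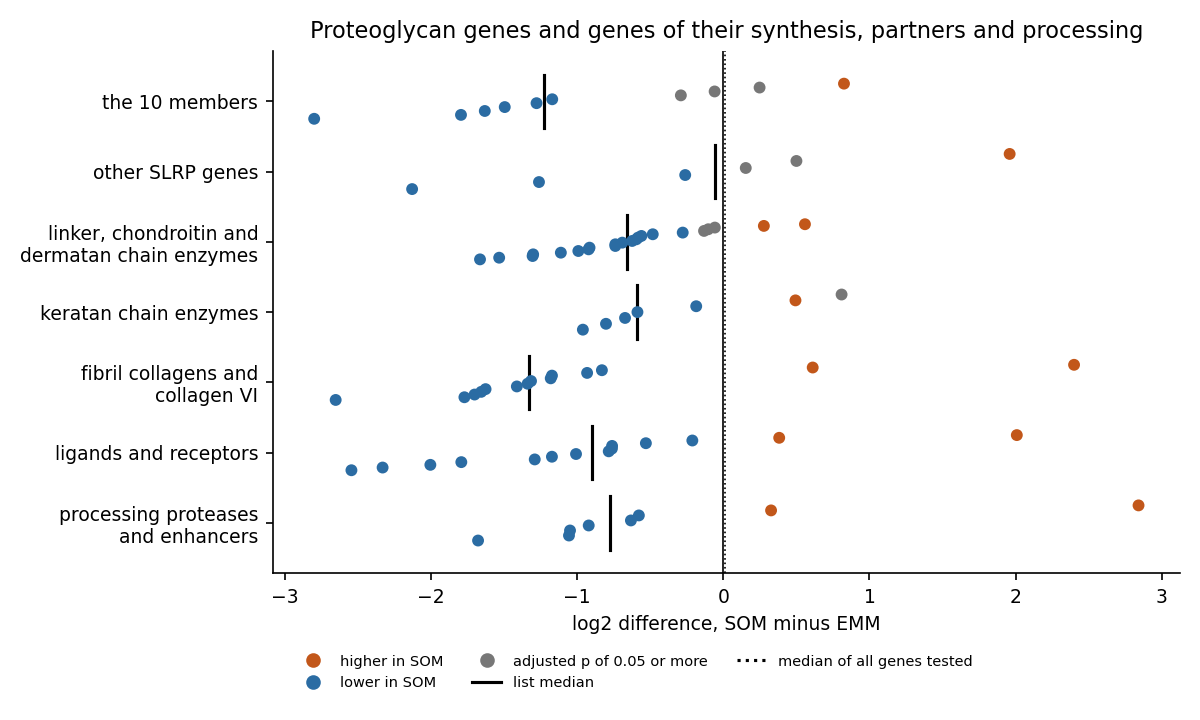
Log2 difference of SOM minus EMM (horizontal axis) for each tested gene of the 10 proteoglycans and of 6 related lists (rows); points are genes, orange higher in SOM, blue lower, grey not past the test, the black bar is the list median and the dotted line is the median of all genes tested. The lists of chain enzymes, collagens, ligands and receptors, and proteases have medians from -1.33 to -0.59, and the other leucine-rich genes -0.05.

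Markers of other cell types also differed between the regions, where 36.1% of all genes tested were lower in SOM and 36.0% higher. All 6 pericyte and smooth muscle genes were lower in SOM, with sums of 9380 to 11129 normalized counts in SOM and 59647 to 67115 in EMM. All 5 macrophage genes were lower in SOM, with sums of 1128 to 1228 in SOM and 4328 to 5273 in EMM. Of 4 tested meninges genes, 3 were lower in SOM and 1 did not pass, with sums of 3698 to 4816 in SOM and 9506 to 10911 in EMM. Of 5 tendon genes, 4 were lower in SOM, among them Tnmd, a tendon and ligament membrane protein gene, at 493 ± 64.7 in SOM and 4604 ± 610 in EMM (SD, n = 4 each), while Scx, the early tendon factor, was higher in SOM at 354 ± 27.4 against 164 ± 27.4 in EMM. Tendon sums ran from 11774 to 13747 in SOM and from 19568 to 25742 in EMM. Of 4 tested osteoblast genes, all 4 were higher in SOM, with sums of 4280 to 5688 in SOM and 1671 to 2026 in EMM. Endothelium was mixed, with 4 genes lower in SOM and 1 higher, as was mesenchyme, with 2 lower and 3 higher. Of 5 surface ectoderm genes, 1 was lower in SOM and 4 did not pass. The part of these cell types in the proteoglycan differences was not tested.

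The genes whose pattern over the 8 libraries was most like that of Fmod, by Pearson correlation of log2 values, were Cpt1a (r = 0.999), Endod1 (0.999) and Golim4 (0.999). Cpt1a, which encodes the carnitine transferase of fatty acid oxidation, averaged 538 ± 46.5 in SOM and 1478 ± 97.3 in EMM (SD, n = 4 each). The genes most like Aspn were Kif17 (r = 0.977), Cdh18 (0.972) and Calr3 (0.971), all of low abundance, and Kif17 averaged 23.0 ± 1.13 in SOM and 10.8 ± 3.76 in EMM (SD, n = 4 each). The 8 libraries share the split between the regions, so that such a correlation describes these libraries only.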

How the data were processed

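The authors deposited 1 table of 23420 genes. Tools named in the submitters' processing notes are STAR, bcl2fastq and DESeq2, with mm10 as the build. Not given in the sources used here are the read counter, its annotation and its use of strand. Per the file headers and the values, its library columns hold a deposited signal per gene, a normalized count, and the mean column is the authors' mean. The deposited table also holds the authors' log2 fold change (positive when higher in EMM), its Wald score and its p-value and adjusted p-value.

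Dividing each library by its lowest nonzero value gave whole reads for 100% of genes (relative tolerance 1e-06). The floor of 3 reads covers counting error only, while the 95% intervals come from limma and the spread between libraries. Genes with at least 10 normalized counts in at least 4 libraries were kept, and log2(normalized count + 1) went into limma 3.58.1 (R 4.3.3; variance trend, robust moderation, no covariate, threshold 0.05). This scale understates changes of low genes. No source says that pools were from separate litters, and p-values cover only how pools vary. On the recovered reads, edgeR 4.0.16 called 5252 genes higher in SOM and 5058 higher in EMM, and DESeq2 1.42.0 was run as well.

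Gene lengths and overlaps came from GENCODE M21. The members and lists were chosen with earlier results of these data known. Genes named from a list were the 2 with the lowest adjusted p below 0.05 per direction. The most similar genes were the 3 with the highest r for the member with the largest called difference in each direction, among members that averaged at least 100 normalized counts in their higher region; the similar genes had no such minimum. Lists were matched by symbol and older symbols. The marker list for mesenchyme held 3 genes higher and 2 lower in SOM, where 72.1% of all genes tested were called. That for skin fibroblasts held 3 higher and 1 lower of 4 tested, glia 5 higher of 5, muscle 3 lower of 4, endothelium 1 higher and 4 lower of 5, red blood cells 4 lower of 4, surface ectoderm 1 lower of 5, and brain 1 lower of 1.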

Additional observations from a re-analysis of the deposited data

How the results depend on the processing

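Under 19 alternatives (pseudocounts of 5 and 0.5, no filter, a filter at 50, upper quartile and TMM scaling, edgeR, DESeq2, limma-voom, the replicate block, each library left out in turn, and EMM replicates 2 and 3 and SOM replicate 4 left out together), the calls and directions of Bgn, Lum, Dcn, Fmod, Prelp and Kera were kept. The last alternative was chosen after seeing the data, as those libraries had the highest Krt5 of their region. The difference of Aspn ran from 0.57 to 0.95 with single libraries left out, and the number of members higher in SOM from 0 to 1, by limma, with 1 at an unadjusted p below 0.05 in each case and 1 by edgeR, DESeq2 and limma-voom with all libraries. Ogn was called with the replicate block (-0.29, adjusted p = 0.00309) and ran from -0.40 to -0.16 with single libraries left out. Epyc ran from -0.12 to 0.04 there and turned sign without EMM replicate 1, at 0.038. Of the other leucine-rich genes, 2 were higher in SOM with no filter, 0 with a filter at 50, 2 with the 3 libraries left out together and 1 to 2 with single libraries left out. With the 3 libraries left out, 1 chondroitin chain enzyme, 2 keratan enzymes and 1 collagen were higher in SOM, and with single libraries left out the enzyme counts ran from 1 to 2 in both lists. Some of these changes followed from the filter. Chadl, at 48.3 in SOM replicate 2 and at most 27.2 in EMM, did not pass the filter at 50. Chad, at 8.40 in SOM replicate 2 and at most 6.27 in EMM, was tested only with the filter dropped or set to fewer libraries. The filter asked for 3 libraries with single libraries left out and for 2 with the 3 left out together. The cause of the other changes was not tested. Same-numbered libraries deviated from their region means with correlations of 0.126, 0.00993, 0.0419 and -0.0199. No source says whether same-numbered libraries are paired, and these correlations cannot settle it. No scaling moved the median of all genes by 0.1. Prelp, Kera, Omd, Ecm2, Optc, Chadl and Pcolce2 rest on 35 to 878 reads per region, which limits their precision.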

Other observations

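Among the EMM libraries, EMM replicate 3 was the lowest for 8 of the 10 proteoglycan genes, namely all but Prelp and Omd, and EMM replicate 1 was the highest for 8, all but Kera and Omd. EMM replicate 3 also had the lowest EMM sum for the chain enzyme, collagen and protease lists. The sum of ligands and receptors was lowest in EMM replicate 2. These ranks were not counted over all genes. Hemoglobin genes took 0.628%, 1.12%, 1.76% and 0.784% of reads in EMM replicates 1 to 4, and between 0.368% and 0.433% in SOM libraries. Among the SOM libraries no replicate was the lowest for more than 4 of the 10 genes. The spread within EMM was 31.5% of the mean for Aspn, 30.3% for Omd and 21.7% for Ogn, against 6.42%, 19.6% and 9.37% in that order within SOM, and the difference in spread was not tested.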
